A study of Mus musculus with 4 samples.

Results

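The data concern m6A sites that were assigned to mouse genes known by a provisional symbol, either Gm followed by a number or a clone code ending in Rik. All rows of the 2 deposited site lists with such a symbol were taken, apart from those of 1110037F02Rik. The Abro1 knockout list held 338 such sites in 256 genes, which was 3.25% of its 10388 sites (95% interval 2.92 to 3.61). The wild-type list held 363 in 276 genes, which was 3.36% of its 10814 sites (3.03 to 3.71). Together the lists named 322 genes of this kind, of which 136 had a Gm symbol and 186 a Rik symbol. Gm genes held 127 knockout and 133 wild-type sites, and Rik genes 211 knockout and 230 wild-type sites. The excluded symbol, an older name of the m6A writer subunit Virma, accounted for 2 knockout and 3 wild-type sites.

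The study set hearts of Abro1 knockout mice beside hearts of wild-type mice, both on a C57BL/6 strain background. The labels do not give the deleted part of the gene, the age or the sex of the mice, or how many animals went into a library. Each genotype had 1 input library and 1 m6A immunoprecipitate, and both libraries together gave 1 list of sites. With 1 list per genotype no test between genotypes could be made, and every difference given here is between 2 lists. Neither list held a site under a name of the deleted gene, Abraxas2, so the lists do not check the genotype. Of 12 cardiomyocyte genes looked for, 5 had a site in the knockout list and the same 5 in the wild-type list (Ttn, Ryr2, Trdn, Tnnt2 and Actn2). The lists hold no read counts, so depth is unknown, and the 95% intervals (exact binomial for shares, order statistics for medians) cover counting error only. Sites of 1 gene share their transcript and are not independent of each other.

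N6-methyladenosine (m6A) is an abundant mark inside mRNA molecules. It is written co-transcriptionally by a methyltransferase complex, mostly within the short motif DRACH and often near stop codons and in long internal exons, and it acts on splicing, export, translation and decay. In the assay used here, fragments pulled down with an m6A antibody are sequenced beside an input, and intervals with more pulled-down than input reads are called as sites. Gm symbols are names that the mouse nomenclature gives to predicted gene models, and Rik symbols come from cDNA clones sequenced at RIKEN. Both kinds of name are given up once a gene is characterised, so older annotations hold well-known genes under them.

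In the RefSeq table of GRCm38.p6, 272 of the 322 genes were found through their gene ID or a current or older symbol, and 50 were not. A different symbol is now used for 95 of them (29.5%), made up of 69 of 186 Rik genes and 26 of 136 Gm genes. The table classes 192 of the 322 as protein-coding (59.6%), 50 as pseudogenes, 29 as lncRNA genes and 1 as another type. Rik genes were mostly protein-coding (147 of 186), whereas Gm genes were split between 45 protein-coding genes, 45 pseudogenes and 34 that the table does not hold. Of the other 6338 genes in the lists, 99.3% were protein-coding.

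Many sites of these genes lay at the start of a neighbouring gene that is read from the opposite strand. A start window was set as the 250 bases before to 50 bases after a RefSeq start. Of the knockout sites, 38 (11.2%, interval 8.08 to 15.1) overlapped the start window of another gene on the opposite strand, and of the wild-type sites 37 (10.2%, 7.28 to 13.8). Among all other genes the share was 3.07% (2.75 to 3.43) in the knockout list and 2.83% (2.52 to 3.17) in the wild-type list. By gene type, lncRNA members stood highest, with 9 of 19 knockout sites (47.4%, 24.4 to 71.1) and 9 of 24 wild-type sites (37.5%, 18.8 to 59.4). Genes not in the RefSeq table had 18 of 50 knockout sites (36%) and 16 of 48 wild-type sites (33.3%). Genes outside the Gm and Rik set that the table does not hold had 4 of 25 knockout sites (16%, 4.54 to 36.1). In the wild-type list they had 2 of 23 (8.70%, 1.07 to 28.0). Protein-coding members had 4.91% of their knockout and 4.78% of their wild-type sites there, and their intervals overlapped those of the other genes. Pseudogenes had 0 of 44 knockout sites and 0 of 39 wild-type sites, which allows a share of up to 8.04% in the knockout list and 9.03% in the wild-type list. Member sites were also longer than other sites. Among sites under 1000 bp alone the share was 9.96% for Gm and Rik genes against 3.23% for other genes in the knockout list, and 7.76% against 2.99% in the wild-type list.

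**Figure D1:**
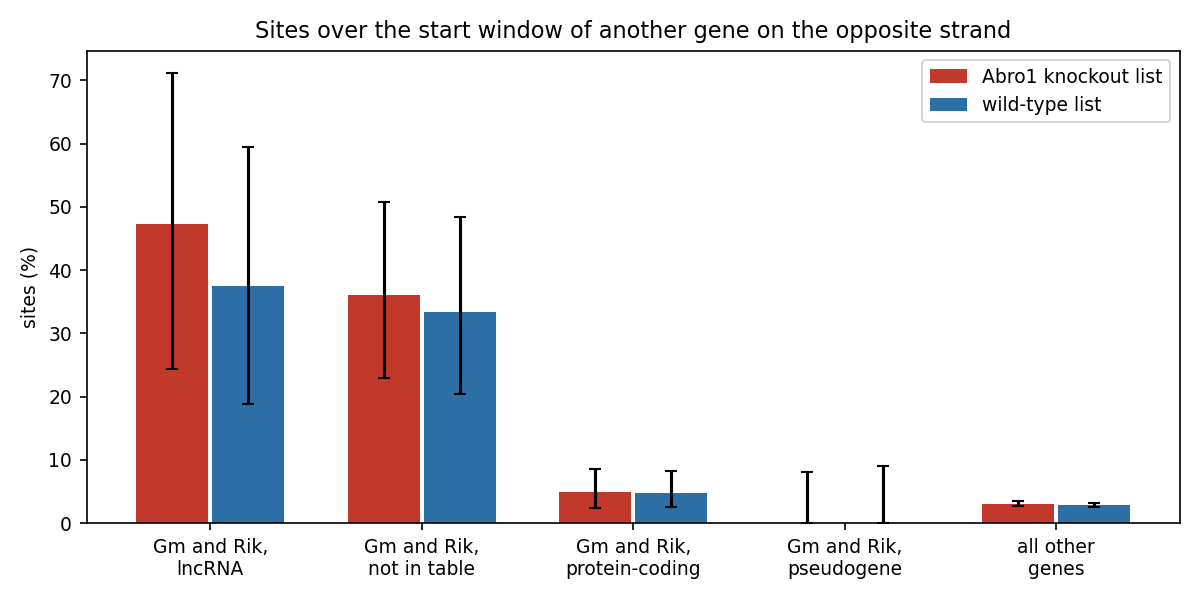
Percent of sites (vertical axis) that overlap the start window of another gene on the opposite strand, by gene type, for the knockout list beside the wild-type list, with exact 95% intervals as bars. The lncRNA genes and the genes not in the RefSeq table stand above the protein-coding members and above all other genes in both lists, and pseudogenes stand at 0.

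These overlaps involved 44 genes in 45 pairs. In 30 genes the overlap was in both lists, in 7 only in the knockout list and in 7 only in the wild-type list. Over all genes, 13.5% of those in the knockout list and 15.8% of those in the wild-type list had no site in the other list. For member genes this was 18% in the knockout list and 23.9% in the wild-type list. Some genes with the overlap in 1 list had other sites in both, as 3425401B19Rik and 1110004F10Rik did. The partners included genes with known roles in the heart and vessel wall. Gm9913 lay against Fbn1, which encodes the microfibril protein fibrillin-1, and D030062O11Rik against Tbx18, a transcription factor of the epicardium and sinus node. The site of 6330403L08Rik lay against Pdgfa, a growth factor for mesenchymal cells, and that of Gm10300 against Epb41, a protein of the membrane skeleton. Chromatin and transcription genes were also among them, namely Eed beside Gm26529, Srcap beside 1700008J07Rik and Leo1 beside A130057D12Rik. The 6030458C11Rik site in the wild-type list lay against Drosha, the nuclease that cuts microRNA precursors.

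For 11 genes, sites in both lists contained all 250 bases upstream of the partner's start. Of these genes the RefSeq table classes 4 as lncRNA genes and does not hold 3. The 4 given next had the highest knockout scores among those not classed as protein-coding. In each, the bases upstream of a known gene lay inside a site that both lists assigned to a Gm or Rik gene. Sequences are from RefSeq GRCm38.p6, written 5′ to 3′ on the strand of the site, which is the strand opposite to the partner, with GGACT in capitals. GGACT is a frequent form of DRACH, and other forms are not marked.
Gm9913 (opposite Fbn1), chr2:125506439-125506688, plus strand: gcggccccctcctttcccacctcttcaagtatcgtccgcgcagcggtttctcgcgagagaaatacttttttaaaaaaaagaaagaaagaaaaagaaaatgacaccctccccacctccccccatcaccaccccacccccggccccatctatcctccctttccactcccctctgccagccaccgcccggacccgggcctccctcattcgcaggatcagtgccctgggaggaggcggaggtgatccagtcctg
2610306M01Rik (opposite Aak1), chr6:86849034-86849283, minus strand: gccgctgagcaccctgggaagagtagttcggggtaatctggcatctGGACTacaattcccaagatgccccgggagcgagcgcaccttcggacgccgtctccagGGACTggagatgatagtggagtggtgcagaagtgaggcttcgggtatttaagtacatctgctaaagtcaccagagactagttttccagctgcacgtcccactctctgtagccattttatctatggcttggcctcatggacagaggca
Gm10762 (opposite Zc3h6), chr2:128967152-128967401, minus strand: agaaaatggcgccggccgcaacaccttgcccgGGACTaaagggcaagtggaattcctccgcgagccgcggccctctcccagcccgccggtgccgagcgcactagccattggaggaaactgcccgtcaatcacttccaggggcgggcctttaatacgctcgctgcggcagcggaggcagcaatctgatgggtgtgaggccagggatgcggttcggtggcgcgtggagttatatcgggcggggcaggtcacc
Gm26529 (opposite Eed), chr7:89980977-89981226, plus strand: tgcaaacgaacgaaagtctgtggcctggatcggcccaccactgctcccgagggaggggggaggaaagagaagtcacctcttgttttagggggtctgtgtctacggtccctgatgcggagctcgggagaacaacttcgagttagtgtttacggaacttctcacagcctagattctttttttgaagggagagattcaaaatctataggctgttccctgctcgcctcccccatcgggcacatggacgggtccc

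On the strand of the site, GGACT occurred 2 times upstream of Aak1, 1 time upstream of Zc3h6 and 0 times upstream of Fbn1 and Eed, and on the other strand 1 time upstream of Fbn1. Of 32851 such 250-base windows of all genes, 21.4% held it on the gene's strand, 22.1% on the opposite strand and 38.9% on either. A match is a description of the letters and not a mapped m6A base. The Gm9913 site had a fold enrichment over input of 17.6 in the knockout list, against 23.2 in the wild-type list. The 2610306M01Rik site had 10.8 in the knockout list, against 17.9 in the wild-type list, over the same 1034 bp. Gm10762 had folds of 8.38 in the knockout list and 13.1 in the wild-type list. Of the 4, Gm26529 alone had the larger fold in the knockout list, 16 against 8 in the wild-type list. RefSeq now lists that gene as E230029C05Rik, and the midpoint of its site lay outside the span given there. Eed, its neighbour, encodes a core subunit of Polycomb repressive complex 2. A fold is a ratio of pulled-down to input reads within a list, and a pair of folds from the lists does not measure a change in methylation.

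The strand used here is the one deposited with each site, and no reads were examined. Each site carried 1 strand and 1 transcript, and 0 of 10388 knockout and 0 of 10814 wild-type sites overlapped another site of the own list on either strand. At 4 places the lists gave the same bases to opposite strands. The interval of A730071L15Rik in the knockout list (plus strand, fold 12.2) shared 232 bp with one of Nudcd3 in the wild-type list (minus strand, 6.74). That of 2310047M10Rik, now Borcs6, in the knockout list shared 709 bp with one of 9330160F10Rik in the wild-type list. Gm10306 in the knockout list shared 251 bp with Caap1 in the wild-type list, and Msc in the knockout list shared 513 bp with Gm9947 in the wild-type list. Whether reads of a gene and of its antisense partner were told apart at such sites was not tested. How the authors used read strand in calling is not given in the sources used here. More broadly, the midpoint of 28.4% of knockout and 25.6% of wild-type member sites lay inside the span of another RefSeq gene, on either strand. For other genes this was 6.36% in the knockout list and 6.34% in the wild-type list.

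One host gene carried a microRNA cluster. The knockout list held a site of 2010111I01Rik, now Aopep, an aminopeptidase gene, on chromosome 13 from 63300480 to 63302877 (2398 bp, plus strand, fold 8.82, score 785). It contained the hairpins of Mir23b, Mir27b and Mir24-1 on the same strand and of Mir3074-1 on the minus strand. The wild-type list had no site of the gene there. The gene's other site, from 63014934 to 63015963, was in both lists, with folds of 4.74 in the knockout list and 7.08 in the wild-type list. The Mir23b, Mir27b and Mir24-1 cluster is best known for roles in endothelial and cardiac muscle cells. A site of 2210011C24Rik, now Misp3, in the knockout list (fold 5.60, score 102) contained the hairpin of Mir1199, and the wild-type list had none in that gene. Over all genes, 17 knockout and 18 wild-type sites overlapped a hairpin by at least 1 base on either strand. Of these, 2 knockout and 0 wild-type sites belonged to Gm or Rik genes. The mature sequences of the same-strand hairpins that the RefSeq table holds are shown to identify what these intervals contain, with the seed (bases 2 to 8) in capitals.
miR-23b-5p: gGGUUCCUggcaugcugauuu
miR-27b-5p: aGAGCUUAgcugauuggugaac
miR-27b-3p: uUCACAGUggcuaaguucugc
miR-24-1-5p: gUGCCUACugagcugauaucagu
miR-24-3p: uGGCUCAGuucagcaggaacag
miR-1199-5p: uCUGAGUCccggucgcgcgg
miR-1199-3p: uGCGGCCGgugcucagucggc
Each has a seed of its own. The lists assign these sites to the genes named, which transcript the reads came from was not tested, and nothing was measured on the mature microRNAs.

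The strongest enrichments of these genes were among the largest of the whole lists. Of the 10 sites with the largest fold, 4 in the knockout list and 3 in the wild-type list belonged to Gm or Rik genes, and of the first 100 there were 9 in each. Gm4076 on chromosome 13 (85126999 to 85127514, minus strand) had the largest fold of either list, 1099 in the knockout list and 1286 in the wild-type list. Gm4799, a pseudogene on chromosome 10, was next among the Gm and Rik genes, with 271 in the knockout list and 239 in the wild-type list. Among protein-coding members, 0610011F06Rik, now Mettl26, a gene named for a predicted methyltransferase-like domain, had 203 in the knockout list, against 130 in the wild-type list. Gm20594 on chromosome 6, also classed as protein-coding, had 163 in the knockout list and 135 in the wild-type list. C130074G19Rik had 83.4 in the knockout list and 78.6 in the wild-type list at the 5′ of its 2 sites. Gm10709, a pseudogene, had 61.0 in the knockout list and 63.5 in the wild-type list. Gm6430, a pseudogene on chromosome 1, had 112 in the knockout list, against 12.3 in the wild-type list, over intervals with the same start. A score of exactly 3100, at which sites cannot be ranked against each other, was shared by 27 knockout and 30 wild-type member sites. Over all genes it was shared by 872 of 10388 knockout and 911 of 10814 wild-type sites. It was not the top of the scale, since the highest scores were 3230 in the knockout list and 3233 in the wild-type list. The deposited false discovery rate stood at 100% in 338 of 338 knockout and 305 of 363 wild-type member sites, so it separated few of them. Over all genes it stood at 100% in 10385 of 10388 knockout and 8960 of 10814 wild-type sites.

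**Figure D2:**
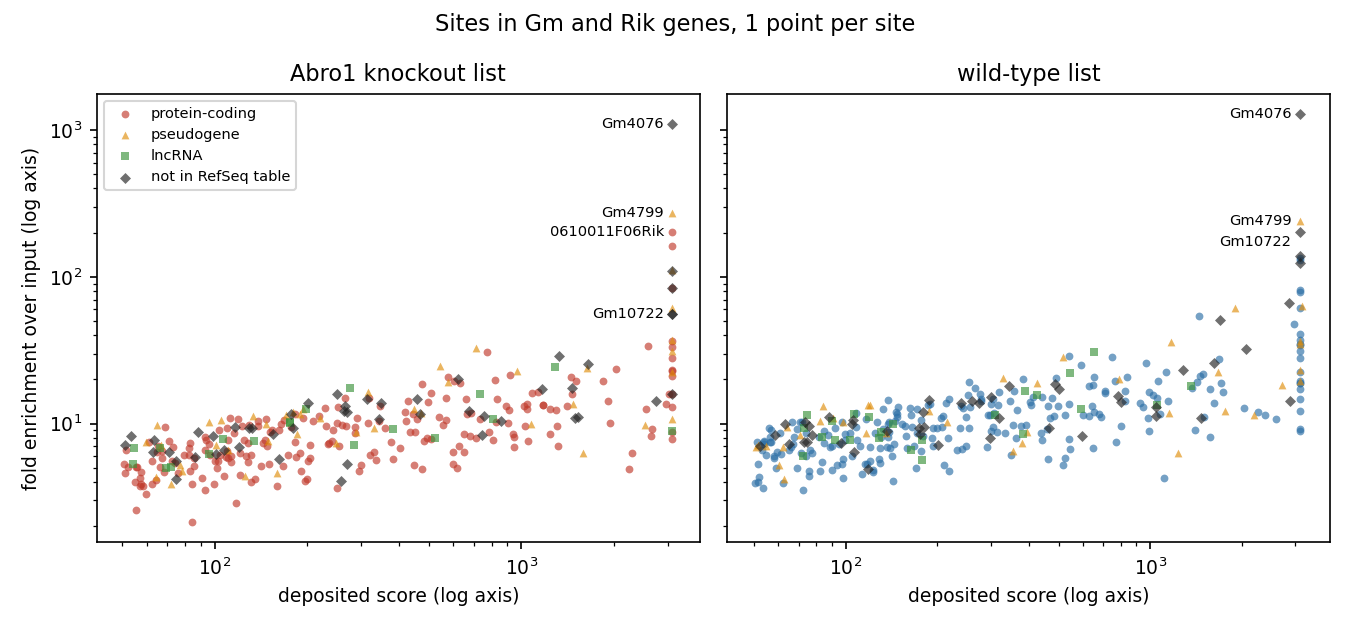
Fold enrichment over input (vertical, log axis) against the deposited score (horizontal, log axis) for every Gm and Rik site, in the knockout list on the left and the wild-type list on the right, with gene type as symbol. Gm4076 stands alone above 1000 in both panels, and Gm10722 stands at 55.6 in the knockout panel and 202 in the wild-type panel.

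Several of the strongest sites lay in clusters of predicted genes. On chromosome 2, Gm10801 (98662237 to 98662522, plus strand) had folds of 109 in the knockout list and 125 in the wild-type list. Its neighbour Gm10800 (98666735 to 98667040, minus strand) had 84.6 in the knockout list and 138 in the wild-type list. On chromosome 14, the stronger of the 2 sites of Gm21738 had 56.0 in the knockout list and 66.8 in the wild-type list. Near the start of chromosome 9, the knockout list held 8 sites in 6 Gm genes over 34190 bp, with folds from 5.60 to 55.6, and the wild-type list 5 sites in 3 Gm genes over 18143 bp, with folds from 9.89 to 202. All 13 were on the plus strand. The first site, in Gm10722 (3000962 to 3001444), had the same ends in the lists. Its fold was 55.6 in the knockout list, against 202 in the wild-type list. Gm11168 had 29.1 in the knockout list and 51.0 in the wild-type list. The sites of Gm10717, Gm10718 and Gm17535 were in the knockout list only, with folds of 5.60, 8.80 and 8.27. Of the knockout sites 3 were exactly 483 bp long, and of the wild-type sites 1. As background, these parts of chromosomes 2 and 9 are known for copies of mouse satellite repeats. No repeat annotation was used here, how the authors placed reads with several matches is not given in the sources used here, and its part in these values was not tested.

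**Figure D3:**
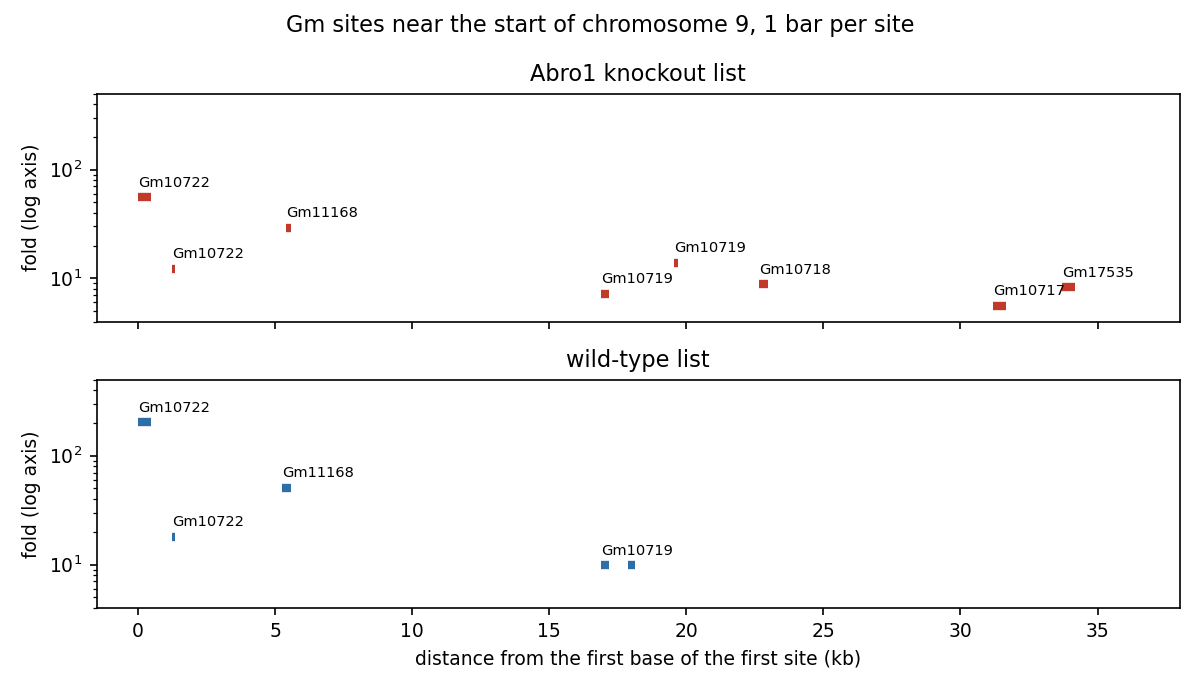
Fold enrichment (vertical, log axis) of each Gm site near the start of chromosome 9 against its distance in kb from the first base of the first site, with the knockout list above the wild-type list and 1 bar as long as each site. Gm10722, Gm11168 and Gm10719 have bars in both panels, and Gm10718, Gm10717 and Gm17535 only in the knockout panel.

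The median fold was 8.79 (8.07 to 9.55) for member sites and 7.93 for other genes in the knockout list, and 10.3 (9.49 to 11.1) for member sites and 9.31 for other genes in the wild-type list. Protein-coding members had medians of 7.91 in the knockout list and 9.70 in the wild-type list, close to the other genes of each list. Pseudogenes had 10.7 (9.30 to 12) in the knockout list and 11.9 (8.77 to 19.1) in the wild-type list. Genes not in the RefSeq table had 11 in both. At the 142 member sites with the same ends in both lists, the median was 9.395 in the knockout list and 11.56 in the wild-type list. At 5762 such sites of other genes it was 8.75 in the knockout list and 10.3 in the wild-type list. A lower fold in the knockout list was thus common over all genes. The share of sites with a fold of at least 20 was 10.1% for members and 10.4% for other genes in the knockout list, and 13.5% for members and 14.1% for other genes in the wild-type list.

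The median length of member sites was 575.5 bp (512 to 657) in the knockout list, where other genes had 354 bp (339 to 369), and 615 bp (525 to 725) in the wild-type list, where other genes had 385 bp (370 to 401). The lists draw transcripts from several sources, and site length differed with the source. Among sites on RefSeq mRNA transcripts alone, member sites had medians of 546 bp in the knockout list and 597 bp in the wild-type list, and sites of other genes 309 bp in the knockout list and 342 bp in the wild-type list. Sites of 1000 bp or more made up 31.7% of member sites and 24.2% of other sites in the knockout list, and 32.5% of member sites and 25.7% of other sites in the wild-type list. The longest in the knockout list was in Gm608, now Usf3, at 7274 bp, against 7092 bp in the wild-type list. The longest in the wild-type list was in Gm1966, at 7773 bp with a fold of 28.5. The knockout list held a pair of sites there, of 3962 bp with a fold of 6.50 and of 1197 bp with a fold of 19.8. The 5398 bp site of 1110002E22Rik and the 5060 bp site of 3425401B19Rik had the same ends in both lists.

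Most member genes had a single site, 78.5% of 256 in the knockout list, where 59.1% of other genes did, and 78.6% of 276 in the wild-type list, where 57.7% of other genes did. Some protein-coding members had several. 2610015P09Rik, now Ccdc191, had 7 sites in the knockout list and 8 in the wild-type list, with its highest fold, 18.7 in the knockout list and 15.6 in the wild-type list, at the same 102 bp. Gm608 (Usf3) had 4 in the knockout list and 5 in the wild-type list, and 1700021F05Rik (Mtres1) 4 in each. Gm15800, now Hectd4, which encodes a HECT-domain ubiquitin ligase, had 3 in the knockout list and 5 in the wild-type list. Its most 5′ site had a fold of 19.6 in the knockout list, against 47.5 in the wild-type list. 9430020K01Rik, now Jcad, a junction protein of endothelial cells, had 3 sites in each list, and its 3653 bp site had folds of 28.2 in the knockout list and 28.0 in the wild-type list.

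The gene span was divided into 5 equal parts, and a site was placed by its midpoint. The last 20% of the span held 41.3% (34.6 to 48.2) of the knockout sites of protein-coding members, where other genes had 34.8%. In the wild-type list it held 39.0% (32.8 to 45.5), where other genes had 35.7%. The part before it held 10.3% (6.59 to 15.2) of these members' knockout sites, where other genes had 16.6%, and 12.9% (8.91 to 17.8) of their wild-type sites, where other genes had 16.1%. Pseudogenes had 57.9% of 38 knockout sites (40.8 to 73.7) and 41.0% of 39 wild-type sites (25.6 to 57.9) in the middle 20%, where other genes had 12.4% in both lists. Pseudogene spans were short, with a median of 1074.5 bp over the knockout sites and 1511 bp over the wild-type sites. The median pseudogene site was as long as 76.0% of the span in the knockout list and 47.3% in the wild-type list, where other genes had 0.771% in the knockout list and 0.821% in the wild-type list. A site that covers most of a span has its midpoint near the middle, so these shares do not place the enrichment within pseudogenes. Exons, coding regions and untranslated regions were not annotated here.

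**Figure D4:**
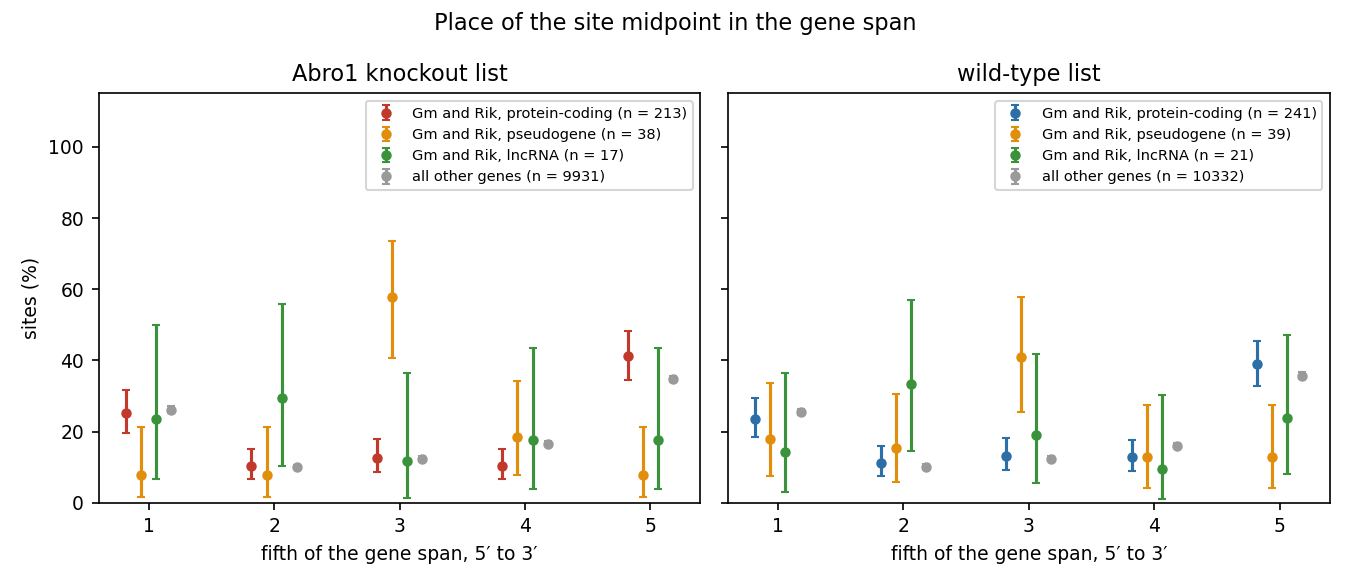
Percent of sites (vertical axis) whose midpoint fell in each 20% of the gene span, from 5′ to 3′, for protein-coding, pseudogene and lncRNA members and for all other genes, with the knockout list left of the wild-type list and exact 95% intervals as bars. Protein-coding members stand highest in the last part, as other genes do, and pseudogenes in the middle part, at 57.9% in the knockout list and 41.0% in the wild-type list.

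Between the lists, 75 of the 338 knockout sites had no overlapping wild-type site (22.2%, 17.9 to 27.0), beside 19.6% of all knockout sites. Of the 363 wild-type sites, 100 had no overlapping knockout site (27.5%, 23.0 to 32.5), beside 22.8% of all wild-type sites. Overlap means at least 1 shared base on the same strand. Sites without a counterpart mostly had low scores. Among member sites with a score from 50 to 100, 50.7% in the knockout list and 55.2% in the wild-type list had none, and among those of 1000 or more, 0 of 70 in the knockout list (up to 5.13% allowed) and 2 of 75 in the wild-type list. Other genes had 50.5% in the knockout list and 53.7% in the wild-type list in the lowest class, and 2.26% in the knockout list and 2.80% in the wild-type list in the highest. From 300 to 1000, members had 8.54% (3.50 to 16.8) and other genes 5.42% in the knockout list, and members 12.9% (6.64 to 22) and other genes 7.45% in the wild-type list. In both lists the interval of the members included the value of the other genes. Both ends were the same in both lists for 142 sites, which was 42.0% of the member sites in the knockout list, where other genes had 57.3%, and 39.1% in the wild-type list, where other genes had 55.1%.

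**Figure D5:**
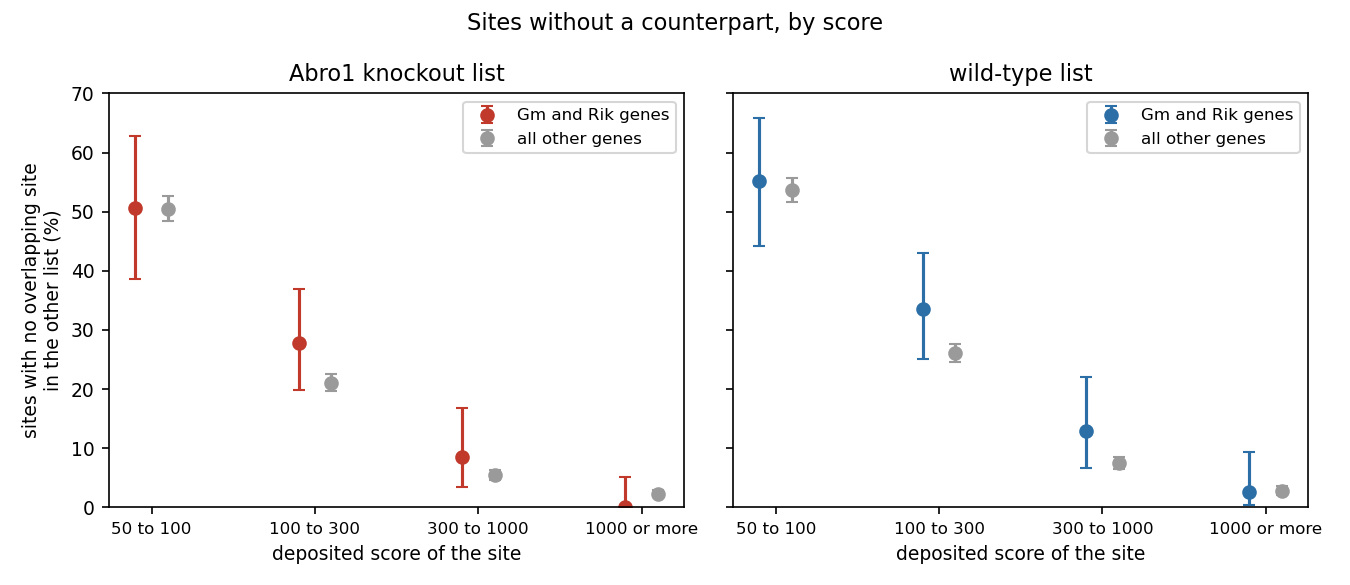
Percent of sites lacking a counterpart in the other list (vertical axis) by class of deposited score (horizontal axis), for Gm and Rik genes and for all other genes, with the knockout list left of the wild-type list and exact 95% intervals as bars. The share falls from over 50% in the lowest class to under 3% in the highest for both kinds of gene.

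By symbol, 210 of the 322 were in both lists, 46 were knockout only and 66 wild-type only. Some of these symbols are older names of genes that the lists also hold under the current name. Matched by RefSeq gene ID, 216 were in both lists, 45 were knockout only and 61 wild-type only. The 5 wild-type-only symbols that had a knockout site under the current name were Gm1078 (Sbk3), 4922501C03Rik (Cep162), 9430076C15Rik (Creb5), 3110001I22Rik (Bfar) and Gm16314 (Gnb1l), and the knockout-only symbol with wild-type sites under the current name was 5830418K08Rik (Cep295). The knockout-only genes were 18% of the 256 in the knockout list, beside 13.5% of all genes of that list, and the wild-type-only genes 23.9% of the 276 in the wild-type list, beside 15.8% of all genes of that list. A single site was held by 40 of the 46 knockout-only genes and by 63 of the 66 wild-type-only genes. Their best sites had a median score of 103.5 in the knockout-only genes and 104 in the wild-type-only genes, whereas genes in both lists had 456 in the knockout list and 433 in the wild-type list. Knockout-only genes were 24.8% of Gm genes but 12.9% of Rik genes in the knockout list, the latter near the 13.5% of all genes. Wild-type-only genes were 24.8% of Gm and 23.4% of Rik genes in the wild-type list. By type, 21 of 152 protein-coding, 5 of 19 lncRNA and 11 of 40 pseudogene members of the knockout list were knockout only. Of the wild-type list, 40 of 171, 10 of 24 and 10 of 39 were wild-type only. In both lists were 131 protein-coding genes, 14 lncRNA genes and 29 pseudogenes. A gene with no site in a list is not shown to be unmethylated, and less RNA of a gene or fewer cells that express it cannot be told apart from fewer m6A marks in such lists.

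Among genes in the knockout list only, Gm10600, a pseudogene, had the highest score, 711, at a 72 bp site with a fold of 32.5. It was followed by A730071L15Rik at a score of 676 with a fold of 12.2, Gm10273, a pseudogene, at 445 with 12.7, and Gm21748 on the Y chromosome at 349 with 13.9. Next came Gm11710, now Cd300ld4, a member of a cluster of myeloid receptor genes, at 347 with 13.2, and Gm10094, now Sap18b, at 330 with 6.43. 4933409K07Rik at 288 and the lncRNA gene Gm5113 at 284 complete the 8 highest. Among them, Gm10600, Gm11710 and 4933409K07Rik had at least 1 of their sites outside the RefSeq span of the gene. The A730071L15Rik site shared 232 bp with a wild-type site of Nudcd3 on the opposite strand.

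Among genes in the wild-type list only, Gm1078 stood first, with a 45 bp site at a score of 3100 and a fold of 80.9. It is now named Sbk3, a protein kinase gene, and the knockout list held a site on the same strand under that name, from 4970485 to 4970635 on chromosome 7 with a fold of 59.6, which ended before the wild-type site at 4971124. Gm5814, a pseudogene, had a score of 1894 with a fold of 61.4, and 1600012H06Rik 945 with 13.0. 8430408G22Rik, now Depp1, which is linked to autophagy, had a score of 526 with 5.86. 9330160F10Rik at 465, the pseudogene Gm5641 at 393, the lncRNA gene 1500004A13Rik at 383 and Gm9994, now Gal3st2b, at 365 complete the 8 highest. The 9330160F10Rik site shared 709 bp with a knockout site of 2310047M10Rik on the opposite strand. 4922501C03Rik, a wild-type-only symbol, is Cep162. Its wild-type site (fold 11) shared 891 bp with a Cep162 site in the knockout list (fold 10.6).

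Sites of some symbols were spread over several places. Of member sites with a RefSeq gene, 19 of 288 in the knockout list (6.60%) and 13 of 315 in the wild-type list (4.13%) had their midpoint outside the span of that gene. For other genes this was 0.938% in the knockout list and 0.921% in the wild-type list. Gm13139, now the zinc finger gene Zfp991, had 4 sites in each list, and they were spread over 1365692 bp of chromosome 4, where the gene spans 48487 bp. Gm14431, now Zfp967, had 2 sites in the knockout list and 4 in the wild-type list over 1149504 bp of chromosome 2, where the gene spans 12818 bp. The sites of 4933409K07Rik, 4 in the knockout list and 0 in the wild-type list, were spread over 351312 bp. All 4 are among the 19 knockout sites outside a span, since RefSeq gives that gene the coordinates 120552 to 144386. Whether these places hold near-identical copies was not examined, and how reads with several matches were placed is not given. Its part in the counts and folds of these symbols was not tested, so they are uncertain.

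Several members are characterised genes under an old name. Examples are given by role, picked by hand after their values had been seen, so they say nothing about a role as a whole. Sites of 4 interferon-induced genes were in both lists. A230050P20Rik, now Shfl, an inhibitor of viral frameshifting, had folds of 33.6 in the knockout list and 37.4 in the wild-type list. Of the neighbouring antiviral genes on chromosome 19, I830012O16Rik (Ifit3b) had 12.6 in the knockout list and 18.8 in the wild-type list, 2010002M12Rik (Ifit1bl2) had 10.2 in the knockout list and 20.6 in the wild-type list, and Gm14446 (Ifit1bl1) had 6.07 in the knockout list and 4.33 in the wild-type list. In both lists the sites of these 4 genes had their midpoint in the last 20% of the gene span.

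Genes with mitochondrial roles included examples in both lists. 1110008L16Rik, now Prorp, the catalytic subunit of mitochondrial RNase P, had folds of 9.04 in the knockout list and 10.8 in the wild-type list. 1810043H04Rik, now Ndufaf8, an assembly factor of respiratory complex I, had 5.49 in the knockout list and 5.98 in the wild-type list. The 4 sites of 1700021F05Rik, now Mtres1, a mitochondrial transcription rescue factor, had the same ends in both lists, with folds from 4.95 to 16.2 in the knockout list and from 6.83 to 20.8 in the wild-type list. 2010107E04Rik, now Atp5mpl, a small subunit of ATP synthase, had 3 sites in the knockout list and 2 in the wild-type list. 9030617O03Rik, now the D-glutamate cyclase gene Dglucy, was in the wild-type list only, at a score of 111 with a fold of 7.10.

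Of zinc finger genes, 6 examples were in both lists, with top folds from 4.46 to 10.5 in the knockout list and from 9.72 to 20.9 in the wild-type list. One of them, 3110052M02Rik (Zfp983), had 4.46 in the knockout list and 16.7 in the wild-type list. Folds of genes outside the Gm and Rik set were also lower in the knockout list, with medians of 7.93 there and 9.31 in the wild-type list. Of these genes, Gm13139, Gm14431 and Gm14436 had sites with their midpoint outside the span of the gene. Chromatin and transcription genes included 2210018M11Rik, now Emsy, with folds of 12.4 in the knockout list and 11.3 in the wild-type list at the same 561 bp, and Gm340, now the corepressor gene Lcor, with 7.06 in the knockout list and 8.12 in the wild-type list at the same 4602 bp. E130012A19Rik, now Epop, a gene of a Polycomb-associated protein, was in the knockout list only at a score of 61.0, and 2810474O19Rik, now Resf1, in the wild-type list only at 156. 9430076C15Rik, in the wild-type list only at 59.4, is Creb5, whose other sites were listed under that name in both lists.

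Of lysosome and autophagy genes, 5430435G22Rik, now the small GTPase gene Rab7b, had 13.2 in the knockout list and 17.4 in the wild-type list. 1700021K19Rik, now Rubcn, a negative regulator of autophagy, had 9.77 in the knockout list and 10.3 in the wild-type list at overlapping sites. Borcs6 and Borcs7 encode subunits of the complex that positions lysosomes. Borcs6 (2310047M10Rik) had a site in the knockout list only. That site shared 709 bp with a wild-type site given to 9330160F10Rik on the opposite strand, so these bases were in both lists. Borcs7 (2010012O05Rik) had 1 site in each list at different places of the gene. Among centrosome and cilium genes, 2410089E03Rik, now the ciliogenesis gene Cplane1, had 3 sites in the wild-type list, with a highest score of 355, and none in the knockout list. 5830418K08Rik, now the centriole gene Cep295, was in the knockout list only under its old symbol at a score of 62.6, and sites under Cep295 were in both lists.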

How the data were processed

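Per the labels' protocols, Trizol RNA from hearts was enriched for m6A (GenSeq kit) and read from both ends beside its input, with 1 library of each kind per genotype (4 in all). The labels' protocol names a directional NEBNext kit and the series' design text a stranded KAPA kit. Per the submitters' processing notes, cutadapt 1.9.3, HISAT2 2.0.4 and mm10 were used. Each deposited list came from the input and the immunoprecipitate of 1 genotype. The fold in the deposited lists is a ratio on a linear scale, pulled-down over input. The deposited score, per the file headers, is the caller's log10 p multiplied by minus 10. The false discovery rate was deposited in percent. These belong to a site within its own list and were used only to describe, rank and filter. The lists hold no read counts, and no source used here states the settings of the caller.

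Calculations used scipy 1.17.1, numpy 2.4.6 and pandas 2.3.3 under Python 3.11.15. Sites overlapped if at least 1 base on the same strand was shared. Genes were matched by symbol between lists and by gene ID or symbol to a RefSeq table of GRCm38.p6, which gives spans without exons. Start windows and miRNAs were from RefSeq tables of that assembly. No genome was used, so sequences of most sites were not examined. No test was run, since each genotype had 1 list. The code that finds overlapping sites was checked on simulated data.

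The members, gene lists and alternatives were chosen with earlier results of these data known. Genes named by rule were the 8 with the largest fold in each list, the 8 per list with the highest score among genes of 1 list, the 6 with most sites (the last of them taken by score from 7 genes tied at 6 sites), the 4 with the longest site per list, genes whose interval the lists gave to different symbols, and the 3 with the highest score per gene type. Partners at start windows, microRNA hosts, role examples and spread symbols were named after their values were seen.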

Additional observations from a re-analysis of the deposited data

How the results depend on the processing

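No paired analysis was possible because each genotype had 1 list, made from 1 input and 1 immunoprecipitate, and the labels give no replicate numbers. For the same reason no library could be left out. Of 60 values recomputed under alternative settings, 45 stayed within the error given for them or, for counts, within 1.5 times, and 15 did not. No direction could turn, since no difference was tested. With a score of at least 100 required in both lists, the median fold was 10.1 in the knockout list and 12 in the wild-type list. Over sites with a counterpart it was 9.60 in the knockout list and 11.5 in the wild-type list. Gm sites alone had a median fold of 9.82 in the knockout list. With 1 site per gene, the median length was 674.5 bp in the knockout list and 767 bp in the wild-type list. Placed by its 3′ end in place of its midpoint, a site fell in the last 20% of the span in 50.2% of knockout and 45.4% of wild-type sites, where midpoints gave 35.3% of knockout and 34.8% of wild-type sites. Split by symbol, 27 Gm and 19 Rik genes were knockout only, 27 Gm and 39 Rik genes were wild-type only, and 82 Gm and 128 Rik genes were in both. The split counts hold fewer genes by construction. The 3′ end of a site lies downstream of its midpoint, so the share placed by 3′ ends could only rise. The cause of the other shifts was not tested.

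The lists give neither read counts nor replicates, so limits of detection and the spread between animals are unknown. Weak sites most often lacked a counterpart: over 50% of member sites with a score under 100 had none. For other genes this was 50.5% in the knockout list and 53.7% in the wild-type list. Without replicates, a missing counterpart does not show whether a site is repeatable. Symbols spread over several places and antisense intervals carry the uncertainty described for them.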
